A study of Mus musculus with 36 samples.

Results

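The cluster of miR-182, miR-183 and miR-96 was followed in B3, a mouse pre-B cell line, by sequencing of small RNA. The cluster consists of 3 hairpin precursors on chromosome 6, each of which can give a 5p and a 3p mature miRNA. Its members were taken by name from the table of normalised levels, as every miRNA named miR-182, miR-183 or miR-96 with an arm. Of the 6 arms that RefSeq lists, 2 were found among the 469 miRNAs of the table, miR-182-5p and miR-183-5p, and the other 4 were not analysed here.

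B3 cells carried a retroviral vector (MSCV) with GFP and one of a pair of inserts. The insert of the Ikaros line was HA-tagged Ikaros, a zinc-finger transcription factor of lymphocytes, joined to ERt2, a domain of the estrogen receptor that binds hormone. Control cells carried ERt2 without Ikaros. Both lines were pools sorted on GFP. For each line 3 cultures were harvested at each of 6 times, 0, 2, 6, 12, 18 and 24 h, which gave 36 samples. 4-OHT, a form of tamoxifen that brings the fusion protein into the nucleus, is labelled at 0.5 uM for all of them, although by the methods of the study the 0 h cultures were untreated. Samples of both lines with the same time and replicate number (1, 2 or 4) came from one culture batch, with batches 4, 5 and 6 at 0 h and batches 1, 2 and 3 at the other times. Both lines share the pre-B cell line as background, so that the model is one line of cells and the replicates are cultures of it.

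In the animal the cluster is best known from sensory organs, where it is transcribed as one precursor in photoreceptors and hair cells. In lymphocytes miR-182-5p is known from activated T helper cells, in which it is induced by interleukin 2 signalling and represses Foxo1, a transcription factor of quiescence that B cell precursors also need. A miRNA finds its targets mainly through its seed, the bases 2 to 8 counted from its 5′ end.

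The 5p arms of the 3 hairpins are shown because their seeds are alike but not identical. The sequences are those of RefSeq (GRCm38.p6), 5′ to 3′, with the seed in capitals.
miR-182-5p: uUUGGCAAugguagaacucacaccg
miR-96-5p: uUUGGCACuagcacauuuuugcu
miR-183-5p: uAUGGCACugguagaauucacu
MiR-182-5p and miR-183-5p were identical at 18 of 22 positions and differed at 4 (U2A, A8C, C17U and A22U, with the base of miR-182-5p first and positions counted from 1 at the 5′ end). Of these differences 2 lie in the seed, U2A and A8C, so that the members form separate seed groups. Of the 469 miRNAs, 391 had a mature sequence in RefSeq, and none of these besides the members themselves shared bases 2 to 7 with miR-182-5p or miR-183-5p.

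In GRCm38 all hairpins are on chromosome 6, minus strand, Mir182 from 30165918 to 30165992, Mir96 from 30169446 to 30169551 and Mir183 from 30169668 to 30169737. All 3 fit within 3820 bp, with 3453 bp between Mir182 and Mir96 and 116 bp between Mir96 and Mir183. In the GENCODE vM21 annotation they overlap no gene other than the miRNA genes, and they lie between the protein-coding genes Nrf1 (12459 bp away) and Ube2h (41551 bp away).

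The levels of the members were far apart. MiR-182-5p (mmu-miR-182-5p in the table) was among the abundant miRNAs, with a median level of 11.92 on the log2 scale over the 36 samples (range 10.63 to 13.05) and rank 30 of the 469 by mean level. MiR-183-5p stood at a median of 1.41 (range 0.53 to 2.68) and rank 394. The lowest value of any miRNA in a sample lay between 0.09 and 0.69, so that miR-183-5p was measured close to the floor of the table. On the linear scale miR-182-5p made up between 0.118% and 0.485% of the summed values of a sample. Within a sample the log2 ratio of miR-182-5p to miR-183-5p had a median of 10.82 for control samples (1808-fold, range 9.27 to 12.53, n = 18) and 10.11 for Ikaros samples (1104-fold, range 9.18 to 11.01, n = 18). Ratios between miRNAs depend on how well each is ligated and amplified in the library, which was not tested for these arms of 25 and 22 bases.

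**Figure D1:**
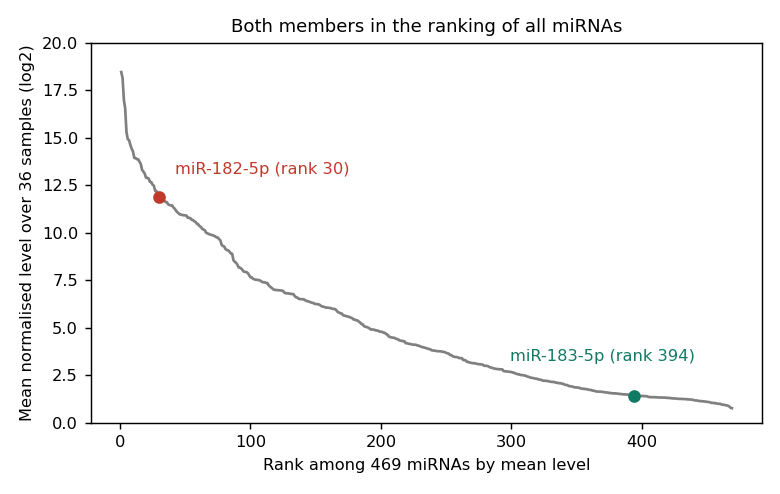
Mean normalised level over the 36 samples (log2, vertical axis) of all 469 miRNAs, ordered by rank (horizontal axis), with both members marked as points. MiR-182-5p stands at rank 30 and miR-183-5p at rank 394, near the low end of the curve.

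MiR-182-5p was lower in the Ikaros line than in the control line at 12, 18 and 24 h. The difference was -1.15 at 12 h, -1.11 at 18 h and -1.47 at 24 h on the log2 scale (SE 0.37 each), so that the level at 24 h was between 21.4% and 60.4% of that in control cells (95% interval). At 0, 2 and 6 h it did not pass the test. MiR-183-5p passed the test at no time.

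At 0 h the control line gave levels of miR-182-5p of 12.62, 12.54 and 11.19 in replicates 1, 2 and 4. The Ikaros line gave 11.85, 12.30 and 11.34 in the same order. The lines overlapped, and replicate 4, from culture batch 6, was the lowest of both. At 2 h the control line gave 12.21, 11.88 and 12.62 and the Ikaros line 11.28, 11.93 and 12.63. At 6 h the values were 12.49, 11.54 and 12.22 in the control line and 12.28, 11.59 and 11.91 in the Ikaros line. Up to 6 h the samples of the lines were intermixed, and 5 of the 9 same-numbered pairs had the lower value in the Ikaros line, with pair differences from -0.93 to 0.16.

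At 12 h the control line gave 11.88, 13.05 and 12.38 and the Ikaros line 10.63, 11.48 and 11.74. At 18 h the values were 12.61, 12.07 and 12.21 against 10.93, 11.44 and 11.18. At 24 h they were 12.66, 12.27 and 12.43 against 10.84, 11.40 and 10.70. From 12 h on every Ikaros sample lay below every control sample of its time, and all 9 same-numbered pairs had the lower value in the Ikaros line, with pair differences from -1.83 to -0.64. Such a separation with the Ikaros line lower was common, being found for 9.81% of all miRNAs at 12 h, 25.4% at 18 h and 30.3% at 24 h.

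**Figure D2:**
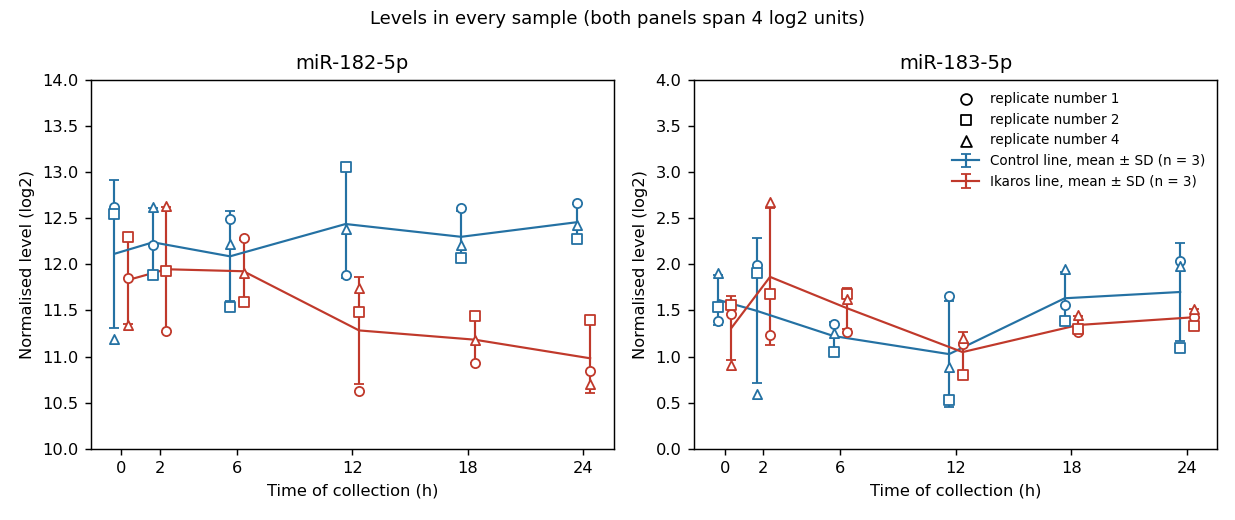
Normalised level (log2, vertical axis) of miR-182-5p (left) and miR-183-5p (right) against the time of collection in hours, with one open symbol per sample, shaped by replicate number, and lines and bars for the mean ± SD of 3 samples in the control line (blue) and the Ikaros line (red). From 12 h on the Ikaros samples of miR-182-5p all lie below the control samples, while the lines overlap for miR-183-5p at all 6 times.

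By limma with Benjamini-Hochberg adjustment over the 469 miRNAs, the difference of miR-182-5p had an adjusted p-value of 0.0239 at 12 h, 0.0204 at 18 h and 0.00194 at 24 h. A lower level in the Ikaros line was called for 9.17%, 16.8% and 22.0% of all miRNAs at these times. At 24 h miR-182-5p was number 28 from the most negative difference. At 24 h Ikaros samples averaged 10.98 ± 0.37 and control samples 12.46 ± 0.20 (SD, n = 3). For 12 h the corresponding means were 11.28 ± 0.58 and 12.44 ± 0.59. For 18 h the Ikaros mean was 11.18 ± 0.25, with a control mean of 12.30 ± 0.28. In bulk cultures fewer cells that hold a miRNA and less of it per cell cannot be told apart.

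The early differences were -0.28 at 0 h (95% interval -1.03 to 0.46, limma adjusted p = 0.823), -0.29 at 2 h (-1.04 to 0.46, adjusted p = 0.733) and -0.16 at 6 h (-0.91 to 0.59, adjusted p = 0.870). Their lower ends stand for 48.9%, 48.6% and 53.2% of the control level, so that a difference of that size could not be told from none. Over all miRNAs 4.05% were called lower in the Ikaros line at 0 h, 4.05% at 2 h and 7.25% at 6 h. By the design that the study describes, libraries were made and sequenced on separate occasions, with control samples of 2 h to 18 h in one and Ikaros samples in the other, and with some samples repeated in both to link them. The labels do not give the occasion, and beyond the batch correction of the authors line and occasion cannot be told apart at these times. This layout covers 2 h, 6 h, 12 h and 18 h, and at 24 h both lines were in one occasion. The part of the occasion in any line difference was not tested.

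The calls at 12 h and 18 h rested on few samples. Without replicate 2 the difference at 12 h was -0.94 (limma adjusted p = 0.215) and without replicate 1 -1.11 (adjusted p = 0.0748). At 18 h it was -0.83 without replicate 1 (adjusted p = 0.173) and -1.35 without replicate 2 (adjusted p = 0.0529). With the median of each sample subtracted, a step that shifted the median over all miRNAs by 0.17 at 18 h and 0.23 at 24 h, it was -0.94 at 18 h (adjusted p = 0.0589) and -1.24 at 24 h (adjusted p = 0.00946). A fit of the 12 h samples alone gave an adjusted p of 0.103. The difference at 24 h passed under every alternative tried, with values from -1.78 to -1.24 and an adjusted p of at most 0.0231.

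**Figure D3:**
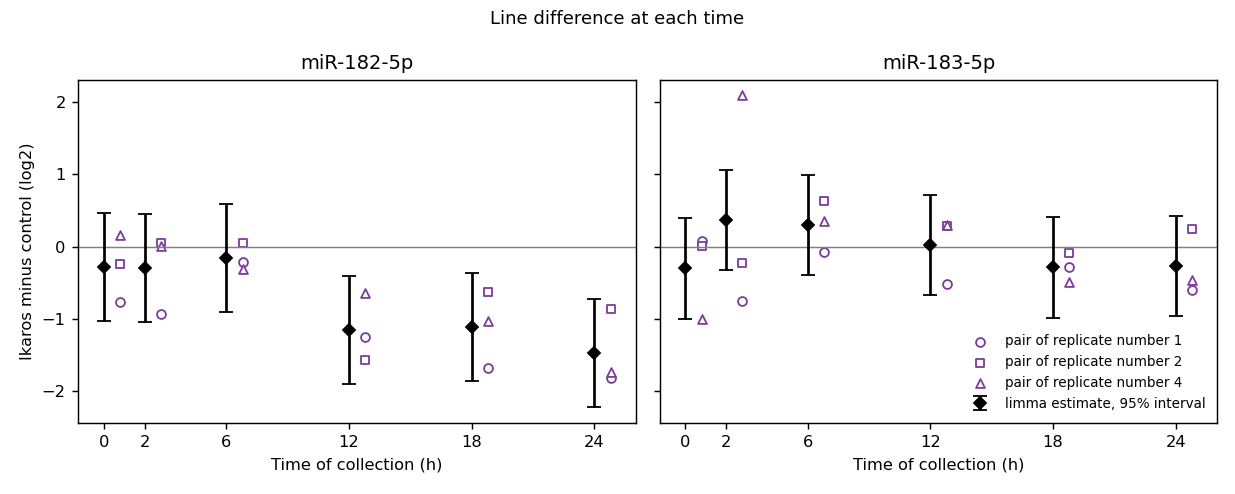
Ikaros minus control level (log2, vertical axis) of miR-182-5p (left) and miR-183-5p (right) at each time of collection in hours, as the limma estimate with its 95% interval (black) and as the difference within each same-numbered pair (open symbols). For miR-182-5p the intervals at 12, 18 and 24 h lie below 0, and for miR-183-5p all 6 intervals include 0.

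Whether the lines drew apart with time was tested on the change itself. Over 2 h to 24 h, times that share their culture batches, miR-182-5p fell by 0.57 on the log2 scale per 12 h in the Ikaros line (SE 0.18, limma adjusted p = 0.0115), where 21.1% of all miRNAs were called falling. In the control line the trend was 0.14 per 12 h (SE 0.18, adjusted p = 0.850). By limma no miRNA passed for that trend (0.0%), and 39 (8.32%) had an unadjusted p under 0.05. The trends differed by -0.72 per 12 h (SE 0.25, adjusted p = 0.0360), a difference in this direction that was called for 13.0% of miRNAs. Without replicate 1, 2 or 4 the adjusted p-value of this difference lay between 0.0869 and 0.145, with values from -0.81 to -0.62, and with sample medians subtracted it was -0.62 (adjusted p = 0.0851). Without replicate 4 the fall in the Ikaros line was -0.37 per 12 h (adjusted p = 0.144). By the layout given above, control samples of 2 h to 18 h and of 24 h were in separate sequencing occasions. The control trend and the difference in trend therefore also span the occasions, which were not separated beyond the batch correction of the authors.

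Contrasts of single times were less precise. The line difference at 24 h exceeded that at 0 h by -1.19 (SE 0.52, limma adjusted p = 0.134) and that at 2 h by -1.18 (SE 0.52, adjusted p = 0.121), and neither passed the test, against 6.61% and 8.96% of miRNAs that were called in this direction. Within the Ikaros line the level changed from 11.95 ± 0.68 at 2 h to 10.98 ± 0.37 at 24 h (SD, n = 3), by -0.96 (adjusted p = 0.0467, with 18.8% of miRNAs called lower). This call was lost without replicate 4 (-0.48, adjusted p = 0.397), without replicate 2 (-1.19, adjusted p = 0.0929), with sample medians subtracted (-0.77, adjusted p = 0.131) and without the mean-variance trend (adjusted p = 0.0542). In the control line the change was 0.22 (adjusted p = 0.943), where no miRNA passed by limma (0.0%) and 33 (7.04%) had an unadjusted p under 0.05. The F-tests of limma over all 6 times gave adjusted p-values of 0.238 for the change of the line difference, 0.122 within the Ikaros line and 0.982 within the control line, where 13.0%, 26.7% and 0.426% of miRNAs passed. The control change and the line difference at 24 h against 2 h also span the sequencing occasions. So do the F-tests for the line difference and the control line. Within each line the F-tests set 0 h, from culture batches 4, 5 and 6, against times from batches 1, 2 and 3. Time and culture batch are not separated in that comparison.

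Averaged over the 6 times, miR-182-5p was lower in the Ikaros line by 0.75 on the log2 scale (estimate -0.75, SE 0.15, limma adjusted p = 0.00011). It was called in this comparison together with 26.4% of all miRNAs that were lower. This average held under every alternative tried, from -0.85 to -0.56 with an adjusted p of at most 0.0109. The fit counts the times as separate samples, although those of 2 h to 24 h came from 3 culture batches. For the times of 2 h to 18 h in this average, line and sequencing occasion cannot be told apart beyond the authors' batch correction. No alternative separated them.

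The spread of miR-182-5p between replicates was wide for its level. Its pooled SD within groups was 0.485, against a median of 0.268 over the 118 most abundant miRNAs, of which 14 varied more. Its deviations from the group means went with those of other miRNAs, most closely miR-351-5p (r = 0.91) and miR-9-5p (r = 0.89) over the 36 samples, which share libraries and group means. The first axis of these deviations held 36.5% of the variation within groups, and miR-182-5p correlated with it at r = 0.82, a size that 40 of the 469 miRNAs exceeded. MiR-183-5p did not follow it (r = -0.06). The samples at the ends of this axis were both from the Ikaros line at 12 h, replicate 1 at the low end, where miR-182-5p was at 10.63, and replicate 4 at the high end, where it was at 11.74. What the axis stands for was not tested.

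With this axis as a covariate, an alternative chosen after seeing the data, the SE of the line differences of miR-182-5p was 0.21, and adjusted p-values by limma were 7.1e-05 at 12 h, 6.1e-05 at 18 h and 6.4e-07 at 24 h. The differences beyond 0 h and beyond 2 h then passed as well (adjusted p = 0.00325 and 0.00373). The early differences did not pass (adjusted p = 0.378 or more). The axis was computed from the same deviations, so that these p-values are too small.

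For miR-183-5p no contrast passed the test. At 0 h control samples averaged 1.61 ± 0.27 and Ikaros samples 1.31 ± 0.35, and at 24 h the means were 1.70 ± 0.53 and 1.43 ± 0.09 (SD, n = 3). The lines overlapped at all 6 times. Its line differences lay between -0.30 and 0.37, with adjusted p-values by limma of 0.557 or more. At 24 h the difference was -0.27 with a 95% interval from -0.97 to 0.42, so that the Ikaros line held between 51.1% and 134% of the level of the control line. The largest difference of a pair was 2.09, at 2 h, where replicate 4 gave 2.68 in the Ikaros line, the highest value of miR-183-5p in any sample, and 0.59 in the control line. Without replicate 4 the difference at 2 h was -0.49 in place of 0.37.

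Because both members are measured in each library, a scaling factor common to all miRNAs of the library cancels in their ratio. Corrections that differ between miRNAs, as those for GC and batch can, need not cancel, and miR-183-5p was close to the floor. The log2 ratio of miR-182-5p to miR-183-5p was lower in the Ikaros line by 0.72 ± 0.76 on average (SD over 18 pairs, difference -0.72), and in 16 of 18 pairs. The exact permutation test that swaps the lines within each pair gave p = 0.00127 (two-sided, 262144 patterns, the only ratio tested). This p-value treats the 18 pairs as independent, although they come from 6 culture batches. In the pairs of 2 h to 18 h the lines were also in separate sequencing occasions, by the layout given above. A swap of the lines therefore swaps the occasion there too, and these were not separated. When the lines were swapped by whole culture batch, an alternative added after seeing the data, the exact permutation p was 0.156 (64 patterns, smallest possible p 0.0312), so that a difference between the members did not pass over batches. The mean per batch was -0.73, -0.76 and -1.10 in batches 1, 2 and 3 with 5 pairs each, -0.84 and -0.26 in the single pairs of batches 4 and 5, and 1.15 in that of batch 6. Over 2 h to 24 h alone the mean was -0.86 in 15 pairs, of which 14 were negative. These 15 pairs come from 3 batches, for which a swap by batch cannot give an exact permutation p below 0.25. Across the 12 group means the levels of the members correlated with r = 0.27, given as a description.

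The miRNAs most like miR-182-5p over the 12 group means were miR-92a-1-5p (r = 0.96), miR-18b-3p (r = 0.95), miR-19b-2-5p (r = 0.95), miR-34c-5p (r = 0.94) and miR-19b-1-5p (r = 0.94). Their line differences at 24 h ran from -3.29 for miR-92a-1-5p to -1.56 for miR-34c-5p, with -1.47 for miR-182-5p. Most unlike it were miR-29c-3p (r = -0.96), miR-872-3p (r = -0.95) and miR-93-5p (r = -0.94). Arms of the miR-17-92 cluster and its paralogues stood at both ends, since miR-93-5p belongs to them like all of the first 5 but miR-34c-5p, and they were not tested as a list. These correlations come from the same 36 libraries for all miRNAs and were chosen as the extremes of the table. For miR-183-5p the highest was r = 0.74, with miR-3112-5p, a miRNA of similarly low level.

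**Figure D4:**
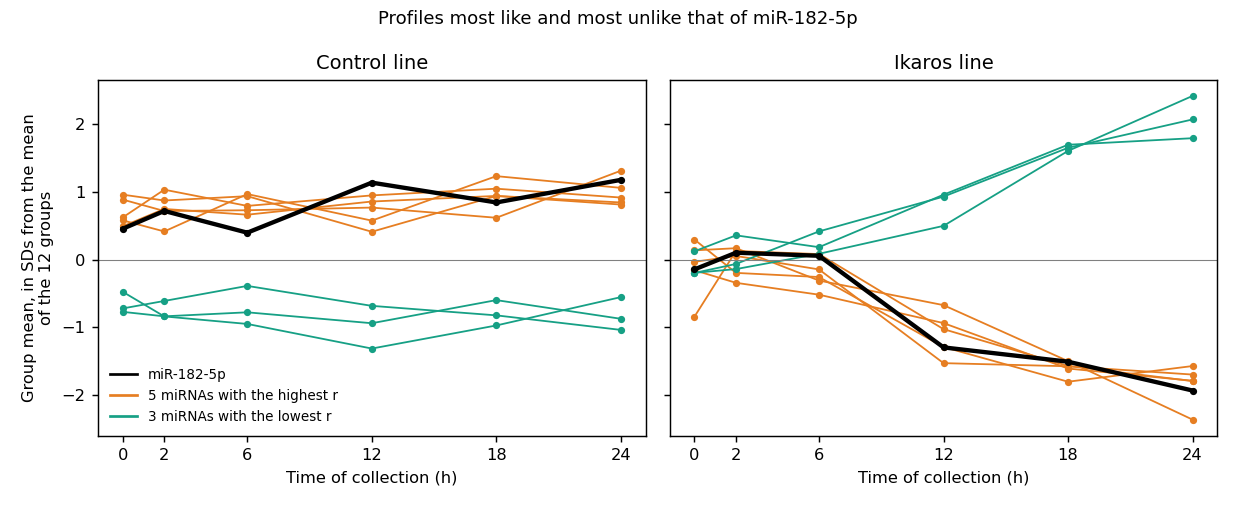
Group means of miR-182-5p (black), of the 5 miRNAs most like it (orange) and of the 3 most unlike it (green), each in SDs from its own mean over the 12 groups (vertical axis), against the time of collection in hours, in the control line (left) and the Ikaros line (right). In the control line the black and orange profiles stay above 0 throughout, and in the Ikaros line they lie below 0 from 12 h on, whereas the green profiles lie above 0 there.

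The nearest other miRNAs of the table on chromosome 6 were the arms of Mir335 (571.6 kb away), Mir29a and Mir29b-1 (892.9 to 893.3 kb away), 6 arms in all. None of these 6 was called lower at 24 h, where their differences lay between -0.61 and 0.54, and 1 was called higher, miR-29a-3p (0.36, limma adjusted p = 0.0489). Over all miRNAs 22.0% were called lower and 17.9% higher at 24 h, so that counts this small are near the background. MiR-29b-3p is also made from a second locus.

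Foxo1 and its relative Foxo3 are reported targets of several miRNAs besides this cluster in other systems. Of a list of 12 such miRNAs, 7 were in the table, the members included. At 24 h 1 of the 7 was lower in the Ikaros line, miR-182-5p itself, and 2 were higher by limma, miR-223-3p (2.06, adjusted p = 0.00052) and miR-21a-5p (0.40, adjusted p = 0.0219). MiR-223-3p was of low level, with a mean of 2.11 on the log2 scale (rank 335), whereas miR-21a-5p ranked 6. The list had a median line difference of 0.08 at 24 h, against -0.07 over all miRNAs, of which 39.9% were called in either direction. MiR-21a-5p, an abundant miRNA of blood cells, had been lower in the Ikaros line at 0 h (-0.81, adjusted p = 0.00012). MiR-155-5p, miR-132-3p and miR-9-5p did not pass at 24 h, with differences of 0.23, 0.07 and 0.08.

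As to the label of the cells, all 5 listed miRNAs of blood and B-lineage cells were in the table, with miR-181a-5p at rank 1 to 3 and miR-142-5p at rank 5 to 17 in every sample. MiR-150-5p, which is known to rise as lymphocytes mature, ranked from 206 to 271. The listed miRNAs of erythroid cells, liver, neurons and muscle were not analysed here, and the 3 of epithelium ranked 179 or lower. MiR-223-3p, a miRNA of myeloid cells, ranked between 203 and 455. Its part in the results was not tested.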

How the data were processed

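Small RNA of 36 samples of B3 cells was sequenced by the study. Per its methods, Novoalign placed the reads on miRBase entries for mouse, and multiBamCov of bedtools gave counts. The authors then filtered by CPM (NOISeq), adjusted for GC (cqn) and scaled (TMM), used ComBat against the effect of the sequencing occasion, and took the mean of technical replicates. The values deposited by the authors are on the log2 scale, without counts, so that the depth of each sample is unknown and no counting interval was given. Precision rests on the 3 replicates. The submitters' processing notes name mm10, and coordinates come from RefSeq and GENCODE tables of the same build.

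All 36 columns were matched to a sample by line, time and replicate number, and no pair was identical. One mean per group (12 groups) was fitted to all 469 miRNAs with limma 3.58.1 (lmFit, eBayes with trend) in R 4.3.3, and called at a Benjamini-Hochberg adjusted p under 0.05. Trends are the slope over the times from 2 h to 24 h. The procedure was tried on simulated data in which each miRNA varied independently. Deviations shared by the miRNAs of a library, as found here, were not part of that simulation. Description and figures used Python 3.11.15, numpy 2.4.6 and matplotlib 3.10.9. Named miRNAs were the members, the Foxo list, those sharing a seed or lying within 2 Mb, and the 5 most like and 3 most unlike a member in group means. Members and lists were chosen with earlier results of these data known.

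Same-numbered samples of both lines share a culture batch per the labels, and their deviations from the group means correlated with r = 0.26 across miRNAs (0.06 at 18 h to 0.41 at 6 h). Alternatives were the culture batch as a replicate block, other scalings, a filter on low values, no trend, fewer samples in the fit and leaving out a replicate number. Added after seeing the data were leaving out culture batch 6, swapping lines by whole culture batch for the ratio, and an axis of within-group deviation as a covariate.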

Additional observations from a re-analysis of the deposited data

Results flagged for a closer look

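The difference in trend of miR-182-5p between the lines over 2 h to 24 h was -0.72 per 12 h on the log2 scale. It was flagged because the lines differed in this contrast by a test of the difference itself (limma, adjusted p = 0.0360). Such a call was common, since 13.0% of all miRNAs were called in this direction, and miR-182-5p was number 32 from the most negative. In the Ikaros line the trend was -0.57 and in the control line 0.14 per 12 h. The difference in trend no longer passed without replicate 1, 2 or 4 (values from -0.81 to -0.62, adjusted p between 0.0869 and 0.145). With sample medians subtracted it did not pass either (-0.62, limma adjusted p = 0.0851). Control samples of 24 h were in another sequencing occasion than those of 2 h to 18 h.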

How the results depend on the processing

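For miR-182-5p the line differences at 24 h and averaged over time kept direction and call under every alternative. None of the alternatives separated the sequencing occasions, which the average spans. The culture batch as a replicate block changed no call of either member, with an adjusted p by limma of 0.0128 at 12 h, 0.0114 at 18 h and 0.000894 at 24 h. With only the groups compared in the fit, the 12 h difference (-1.15) no longer passed. With sample medians subtracted, the 18 h difference (-0.94), the Ikaros change from 2 h to 24 h (-0.77) and the difference in trend (-0.62) no longer passed, and neither did the Ikaros change (-0.96) without the mean-variance trend. The F-test within the Ikaros line does not separate 0 h from its culture batches. This limma F-test passed after quantile normalization (adjusted p = 0.0268), without culture batch 6 (0.0412) and with the axis of deviation as a covariate (0.00027). With that axis the F-test of the interaction (0.00115) and the differences of 24 h from 0 h (-1.19) and from 2 h (-1.18) passed too. The axis was computed from the same deviations, so that all p-values with it are too small. Leaving out one replicate number at a time gave -1.41 to -0.94 at 12 h, -1.35 to -0.83 at 18 h, -1.23 to -0.48 for the Ikaros change, -0.74 to -0.37 for the Ikaros trend, -0.81 to -0.62 for the difference in trend and -0.46 to 0.027 at 2 h, where the sign turned without replicate 1. The cause of these shifts was not tested. The ratio of the members (-0.72, and -0.86 over 2 h to 24 h) no longer passed with the lines swapped by culture batch (exact permutation p of 0.156 and 0.25).

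MiR-183-5p passed under no alternative, and signs of its small estimates turned. They were -0.26 at 12 h and -0.015 for the control change from 2 h to 24 h after quantile normalization, and 0.092 for the average after median subtraction. Without culture batch 6 the average was 0.028, the 0 h difference 0.043 and the difference of 24 h from 0 h -0.32. Leaving out one replicate number gave -0.49 to 0.043 at 0 h, -0.49 to 0.93 at 2 h, -0.12 to 0.29 at 12 h, -0.11 to 0.14 for the average, -0.22 to 0.38 for 24 h against 0 h, -1.20 to 0.31 for 24 h against 2 h, -0.39 to 0.72 for the control change, -0.077 to 0.41 for the control trend and -0.61 to 0.010 for the difference in trend. With miRNAs of a mean under 3 removed it had no value.

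Counts of called miRNAs moved in both directions. With only the groups compared they went from 53 to 16 at 2 h, from 102 to 18 at 12 h and from 67 to 37 for 24 h against 2 h, but from 40 to 50 at 0 h, from 140 to 159 at 18 h and from 58 to 74 for 24 h against 0 h. Leaving out one replicate number lowered them to as few as 22 of 40 at 0 h, 18 of 53 at 2 h, 22 of 71 at 6 h, 34 of 102 at 12 h, 69 of 140 at 18 h and 110 of 187 at 24 h. It lowered them to as few as 12 of 58 for 24 h against 0 h, 19 of 67 against 2 h, 54 of 134 for the Ikaros change, 81 of 163 for the Ikaros trend, 45 of 104 for the difference in trend, 11 of 61 for the interaction, 39 of 125 for the Ikaros F-test and 0 of 2 for that of the control line, which was also 0 with miRNAs under a mean of 3 removed. Without culture batch 6 they were 26 at 0 h, 33 for 24 h against 0 h and 1 for the control F-test. With the axis as a covariate they rose to 66 at 0 h, 97 at 2 h, 111 at 6 h, 111 and 127 for 24 h against 0 h and 2 h, 157 for the difference in trend, and 136, 197 and 15 for the F-tests of the interaction, the Ikaros and the control line. Depth is unknown, so its limit on miR-183-5p could not be given.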
